A study of Mus musculus with 3 samples.

Results

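Cycling dermal fibroblasts are connective-tissue cells of the skin caught while copying their DNA or dividing. In 3 single-cell RNA sequencing libraries of mouse dorsal skin, 413 of 14007 fibroblast barcodes met the definition used here, out of 26143 barcodes kept in all. A barcode is the tag of 1 droplet, and a UMI (unique molecular identifier) marks 1 captured transcript. Barcodes needed at least 300 genes and at least 500 UMIs, with no more than 10% of UMIs from mitochondrial genes. A barcode passed the fibroblast gate when Col1a1, Col1a2, Col3a1 and Dcn together made up at least 2% of its UMIs and Ptprc, Pecam1 and Rgs5 had none. It counted as cycling when at least 4 of 8 genes of late S phase and mitosis (Top2a, Birc5, Ube2c, Cenpf, Cdk1, Ccna2, Cdca8 and Pbk) had a UMI, and as non-cycling with 0 or 1 of them. The barcodes were thus chosen by their own UMIs of these 15 genes, so the levels of these genes are given below as a description.

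The libraries were made from minced and collagenase-digested dorsal skin of C57BL/6 mice, 1 each from neonatal, 3 week and 2 month animals. The labels name no transgene or treatment for any group, and they give neither the sex nor the number of mice behind a library. The series asks how the cytokine interleukin-1 (IL-1) and the WNT pathway act on precursors of skin fat cells. With 1 library per age, no difference between ages was tested, and intervals cover counting error only (exact Clopper-Pearson for shares, exact Poisson for counts, at 95%). The deposited libraries held 84086755 to 113874172 UMIs. The summed counts of the cycling barcodes came to 3052816 UMIs in the neonatal, 4639415 in the 3 week and 383236 in the 2 month library.

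As background, dermal fibroblasts expand around birth and lay down the collagen and elastin of the dermis, and most of them leave the cell cycle as the dermis matures. E2F factors switch on genes of DNA replication at the start of S phase. The mitosis genes follow in G2 under the MuvB complex with B-MYB and FOXM1, acting with NF-Y on CCAAT boxes and on a short element called the cell cycle genes homology region (CHR).

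Cycling barcodes were 179 of 4190 fibroblast barcodes in the neonatal library, 4.27% (3.68 to 4.93). They were 217 of 5332 at 3 weeks, 4.07% (3.56 to 4.64), and 17 of 4485 at 2 months, 0.379% (0.221 to 0.606). The intervals of the first pair overlap, and that of 2 months lies below both. A further 141, 88 and 12 barcodes had 2 or 3 of the 8 genes and belong to neither class. Detection of 4 genes depends on depth, and cycling barcodes were deeper, with medians of 15039, 20898 and 21069 UMIs against 9589.5, 12235 and 10661 in non-cycling barcodes. After each barcode was thinned to 3000 UMIs the shares were 2.31%, 2.22% and 0.211%, with the 2 month interval (0.0964 to 0.400) again below the other two. Raising the collagen limit to 5% of UMIs gave 2.01%, 3.65% and 0.428%, so that the order of the neonatal and 3 week shares turned. A further setting left out barcodes holding 3 or more UMIs of other lineages' markers, summed over those lineages. The shares were then 91 of 2953 (3.08%, 2.49 to 3.77), 25 of 1791 (1.40%, 0.905 to 2.05) and 1 of 1619 (0.0618%, 0.00156 to 0.344). This limit is a fixed count that was not scaled to depth, and cycling barcodes were deeper. The part of depth and of stray transcripts in these shares was not tested. Of the 17 cycling barcodes at 2 months, 1 thus held fewer than 3 such UMIs. Neonatal cycling barcodes lay near the limit of the gate, at a median of 3.47% collagen and Dcn UMIs, against 11.1% at 3 weeks and 6.28% at 2 months.

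**Figure D1:**
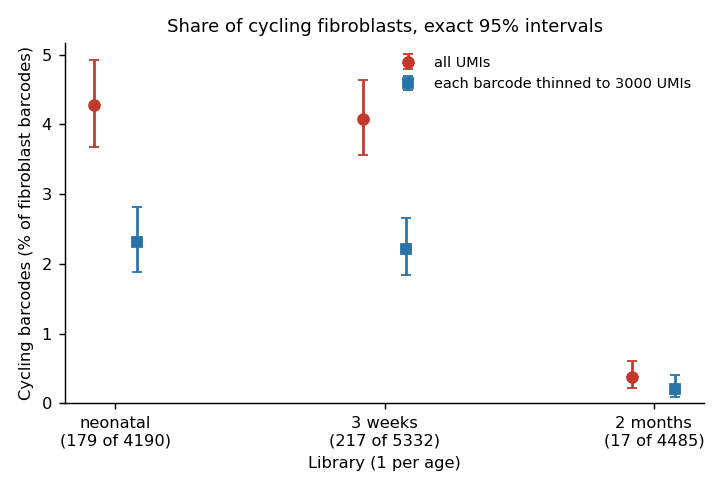
Cycling barcodes as a percentage of fibroblast barcodes in each library, from all UMIs (circles) and after thinning each barcode to 3000 UMIs (squares), with exact 95% intervals for counting error. The neonatal and 3 week shares lie at 4.27% and 4.07% and the 2 month share at 0.379%.

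All cycling barcodes held 3 or more UMIs of the 8 fibroblast markers (Pdgfra, Lum, Dpt, Col5a1, Col6a1, Fbln1, Mfap2 and Twist2). Pdgfra, the receptor that marks dermal fibroblasts, stood at 225, 169 and 243 CPM (UMIs scaled to a sum of 1000000) in the cycling and 226, 150.3 and 143 CPM in the non-cycling sums of the neonatal, 3 week and 2 month libraries. The small proteoglycan gene Lum stood at 1936, 1727 and 1524 CPM in cycling and 2154, 2356 and 2035 CPM in non-cycling barcodes. Neither fibroblast gene passed the test described below (adjusted p 0.644 for Pdgfra and 0.207 for Lum). Of the 8 markers edgeR called 0, against 12.9% of all genes tested, and DESeq2 called 1, lower, and 3 had an unadjusted p under 0.05 by edgeR.

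Markers of other skin cells were present beside the fibroblast genes. Of the 11 keratinocyte markers, all were detected in the cycling barcodes of each library, and their summed level was 250, 2246 and 3546 CPM against 140, 892 and 736 CPM in non-cycling barcodes. The sums rest on few barcodes. In the neonatal library 1 cycling barcode held 559 of the 763 UMIs, at 3 weeks 1 held 1396 of 10420, and at 2 months 1 held 881 of 1359. The median cycling barcode held 1, 3 and 5 keratinocyte UMIs and the median non-cycling barcode 0, 2 and 1. At least 3 keratinocyte UMIs were held by 21, 131 and 13 cycling barcodes. In 1 neonatal barcode, 14 at 3 weeks and 3 at 2 months, the UMIs of another lineage's markers outnumbered those of the fibroblast markers. That lineage was the keratinocyte in 1, 13 and 3 of them. The largest of these barcodes held 95110 of the 4639415 cycling UMIs at 3 weeks and 63544 of 383236 at 2 months. These barcodes stay in the cycling sums unless stated otherwise. The 6 melanocyte markers summed to 6.88, 152 and 36.5 CPM in cycling and 16.4, 29.6 and 76.5 CPM in non-cycling barcodes, and 1 cycling barcode held 440 of the UMIs at 3 weeks. The 10 macrophage or dendritic markers summed to 8.19, 25.9 and 600 CPM against 8.74, 45.3 and 67.0 CPM, and 1 of the 17 cycling barcodes at 2 months held 218 of the UMIs there. The 7 endothelial markers summed to 44.9, 44.0 and 67.8 CPM against 15.3, 33.2 and 45.7 CPM. Mast cell and muscle progenitor markers were all at 0 in the 2 month cycling barcodes. Scrublet, which scores likely doublets, marked 41, 4 and 2 cycling barcodes, 22.9%, 1.84% and 11.8% of them, against 5.71%, 2.98% and 3.90% of non-cycling barcodes. The neonatal marks are the 6% of barcodes with the highest score, since Scrublet's own threshold marked 0.0253% there. The other libraries kept its own threshold, so the neonatal shares cannot be set against theirs. The part of these barcodes in the results was not tested, and counts of called genes without them are given below.

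The levels of the genes of the rule are set by the definition and are given as a description. Top2a, the topoisomerase that untangles replicated DNA, stood at 417, 404 and 472 CPM in cycling and 2.59, 1.15 and 0.618 CPM in non-cycling fibroblasts. Cdk1, the kinase that starts mitosis, stood at 297, 322 and 337 CPM in cycling and 7.31, 0.974 and 0.232 CPM in non-cycling barcodes. Ube2c, which loads ubiquitin on mitotic cyclins, reached 354, 696 and 639 CPM against 1.48, 1.98 and 0.676 CPM. All 8 genes were detected in 79 cycling barcodes of the neonatal library (44.1%), 114 at 3 weeks (52.5%) and 9 at 2 months (52.9%), while 24, 19 and 3 barcodes had exactly 4. Just inside and just outside the limit, the proliferation marker Mki67, which the rule did not use, stood at 54.9 CPM in neonatal barcodes with 4 genes and 17.3 CPM in those with 3. At 3 weeks the corresponding Mki67 levels were 84.1 and 30.9 CPM. Stmn1, a microtubule regulator, showed no such step in the neonatal library, at 504 CPM with 4 genes and 504 CPM with 3, and stood at 545 and 458 CPM at 3 weeks. Pcna, the replication clamp, stood at 102 CPM with 4 genes and 128 CPM with 3 in the neonatal library, and 97.6 and 112 CPM at 3 weeks.

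The upstream sequences of 3 of these genes and of the replication gene Mcm6 are shown because these genes set cycling barcodes apart and their promoters carry the elements named above. Each line gives the bases directly before the first listed transcription start, 5′ to 3′ on the gene's strand, from the RefSeq promoter table (GRCm38.p6, the assembly also called mm10). Capitals mark CCAAT or its reverse complement ATTGG, the CHR core TTTGAA or TTCAAA, and the E2F matches TTTGGCGC or TTTCGCGC and their reverse complements.
Top2a (chr11:99024190-99024324, minus strand): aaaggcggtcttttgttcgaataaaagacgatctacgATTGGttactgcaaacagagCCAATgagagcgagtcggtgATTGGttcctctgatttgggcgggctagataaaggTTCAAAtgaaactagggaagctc
Cdk1 (chr10:69352913-69353047, minus strand): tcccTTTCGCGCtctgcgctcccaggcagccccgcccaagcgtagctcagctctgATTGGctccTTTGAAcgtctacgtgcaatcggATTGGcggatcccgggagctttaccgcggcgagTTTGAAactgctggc
Ube2c (chr2:164769794-164769928, plus strand): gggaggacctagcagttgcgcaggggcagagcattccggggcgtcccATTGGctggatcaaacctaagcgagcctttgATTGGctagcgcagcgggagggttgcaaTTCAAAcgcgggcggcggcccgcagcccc
Mcm6 (chr1:128359706-128359840, minus strand): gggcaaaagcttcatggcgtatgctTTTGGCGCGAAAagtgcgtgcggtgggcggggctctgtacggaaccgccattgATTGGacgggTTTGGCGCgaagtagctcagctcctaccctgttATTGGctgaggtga
In these letters Top2a, Cdk1 and Ube2c hold CCAAT boxes with a CHR core nearer the start, Mcm6 holds E2F matches without a CHR core, and Cdk1 holds all 3 kinds. They are the 3 of 6 matched rule genes with a CHR core in the promoter window: Cenpf and Cdca8 hold CCAAT boxes without one, and Birc5 holds none of the 3 kinds of motif. Over the 250 bases before the start, on both strands, 36.7% of the 49 matched promoters of a 59-gene mitosis list held TTTGAA, 73.5% held CCAAT and 32.7% held both. Of the 33 matched promoters of a 40-gene replication list, 12.1% held the CHR core, 60.6% a CCAAT box and 12.1% an E2F match. The shares over all 10282 matched genes tested were 10.3% for the CHR core, 36.3% for CCAAT, 3.997% for both and 1.25% for the E2F letters. Over all 27025 promoters of the table they were 16.3%, 34.5%, 5.73% and 0.673%. A match describes the letters of the window, not binding, and a missing match says only that these letters are not in it.

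Replication and mitosis transcripts were unevenly spread over the cycling barcodes. The summed replication genes had a median of 3381 CPM per cycling barcode in the neonatal library, 1950 CPM at 3 weeks and 1041 CPM at 2 months. The mitosis genes had medians of 5587, 7198 and 6303 CPM. The replication sum exceeded the mitosis sum in 62 of 179 neonatal barcodes (34.6%), 50 of 217 at 3 weeks (23.0%) and 3 of 17 at 2 months (17.6%). Within a library both sums varied widely, the mitosis sum from 531 to 27617 CPM in neonatal barcodes. The rule rests on genes of late S phase and mitosis, and how many barcodes in early S phase it leaves out was not tested.

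**Figure D2:**
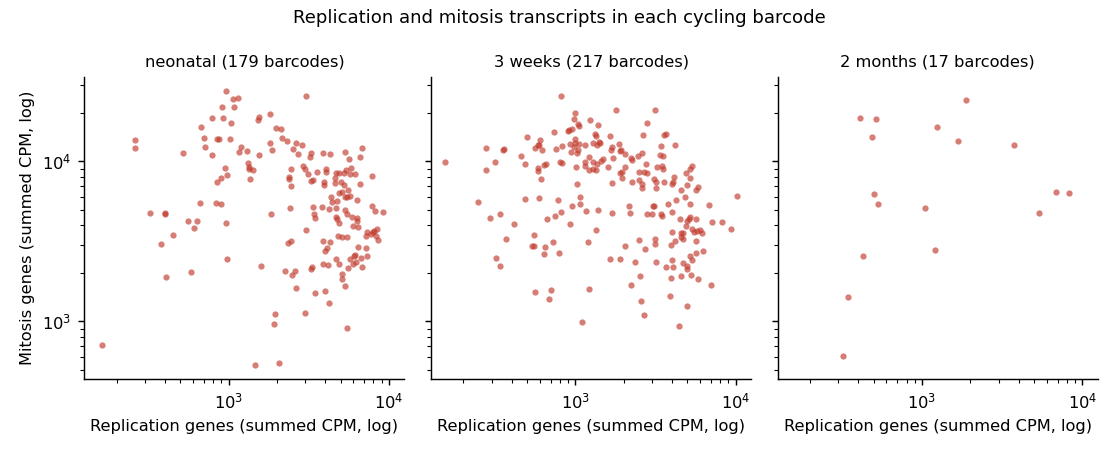
Each point is a cycling barcode, placed by its summed replication genes (x) and mitosis genes (y) in CPM on log axes, 1 panel per library. Barcodes high in one sum are often low in the other in the neonatal and 3 week panels, and 17 barcodes are too few to show a shape at 2 months.

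Other cell cycle genes move with the genes of the rule, so their values are a description too. Mki67 stood at 198, 339 and 399 CPM in cycling and 1.86, 1.501 and 0.290 CPM in non-cycling fibroblasts. Hmmr, a spindle-associated hyaluronan receptor, stood at 76.0, 156 and 232 CPM against 0.0502, 0.128 and 0.116 CPM, and cyclin B1 (Ccnb1) at 124, 147 and 219 CPM against 0.829, 0.367 and 0.290 CPM. Thymidine kinase (Tk1), which makes a DNA precursor, stood at 214, 153 and 151 CPM against 1.96, 0.527 and 0.232 CPM. The replication clamp Pcna had 149, 114 and 120.0 CPM against 23.3, 23.0 and 22.6 CPM, so that non-cycling fibroblasts held it too. Stmn1, which destabilises microtubules, had 1091, 991 and 1206 CPM against 42.9, 15.97 and 11.6 CPM. After thinning to 3000 UMIs, Stmn1 was detected in 92.7%, 86.6% and 82.4% of cycling and 10.8%, 4.74% and 2.78% of non-cycling barcodes. All 40 tested replication genes and 58 of 59 mitosis genes, Pttg1 being the exception, were called higher, as were 16 of 19 histone, 25 of 26 chromatin and cytoskeleton and 19 of 23 repair genes, beside 7.62% of all genes tested.

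The remaining genes were compared by a test over libraries. Counts were summed by library and class, and the neonatal and 3 week libraries entered, since 2 months had fewer than the 20 cycling barcodes required. The test was edgeR's quasi-likelihood test with the library as a block and TMM scaling, and log2 fold changes below are cycling minus non-cycling. Called means an adjusted p (Benjamini-Hochberg over all genes tested) under 0.05, and rose or fell means called higher or lower in cycling barcodes. Of 13813 genes tested, 1052 (7.62%) were higher and 725 (5.25%) lower in cycling barcodes, with a median log2 fold change of -0.06. Outside the cell cycle lists, 6.55% of 13646 genes were higher and 5.31% lower. The lists do not hold every gene of S phase and mitosis, so the higher share includes some that move with the rule. The p-values measure the spread between these libraries alone. Without barcodes marked by Scrublet, 737 genes were higher and 245 lower. Without the library block, 112 were higher and 0 lower. With library totals in place of TMM, 1549 were higher and 479 lower, and the median of all genes was 0.09.

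The genes with the highest fold changes outside the cell cycle lists were close to absent from non-cycling barcodes. They include genes of S phase and mitosis that the lists do not hold. Such genes move with the genes of the rule, so the values of the leading 10 are a description too. Kif18b, a motor of the mitotic spindle, stood at 19.98, 34.9 and 39.1 CPM against 0.0502, 0.0160 and 0 CPM (log2 fold change 9.51, SE 0.48). Esco2, which acetylates cohesin in S phase, stood at 65.5, 62.9 and 70.5 CPM against 0.151, 0.112 and 0.0386 CPM (log2 fold change 8.71, SE 0.24). The others of the leading 10 were Cdca5, Fam64a, Sapcd2, Depdc1a, Melk, Ska1, Neil3 and Troap, with log2 fold changes between 8.05 and 8.66. Among the genes with the lowest values, the acute-phase gene Saa3 and the cytokine gene Csf3 had no UMI in any cycling barcode. Against a floor of 3 counts, the ratio of cycling to non-cycling for Saa3 was at most 0.308 in the neonatal and 0.409 in the 3 week library. For Csf3 it was at most 0.349 in the neonatal library. At 3 weeks the non-cycling level of Csf3, 0.511 CPM, lay under the 0.647 CPM that 3 UMIs make in the cycling sum, so no bound below 1 can be given. The chemokine gene Cxcl5 stood at 0.983, 0 and 0 CPM in cycling and 10.05, 0.367 and 0.927 CPM in non-cycling barcodes (adjusted p 0.0125). The others among the lowest 10 were Pde1a, Fmod, Chac1, Fgf9, Gbp5, Slc46a1 and Cma1, and all of these but Fmod had 8 or fewer UMIs in the cycling sum of each library.

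Regulators of entry into the cycle changed in both directions. Those that vary over the cycle can move with the genes of the rule, so the higher calls in this list are a description too. Of 16 D cyclins, G1 kinases and their activators tested, 5 rose (Skp2, Cdk2, Mycn, Cdk4 and Cdc25a) and 3 fell (Ccnd2, Cdk7 and Myc), with a median log2 fold change of 0.05. Skp2, the ubiquitin ligase subunit that removes p27, stood at 65.5, 18.8 and 7.83 CPM in cycling and 11.7, 3.23 and 1.87 CPM in non-cycling fibroblasts (log2 fold change 2.30, SE 0.17, adjusted p 1.54e-04). Cdk4, the partner of D cyclins, stood at 325, 197 and 154 CPM against 154, 97.6 and 74.6 CPM (log2 fold change 0.83, SE 0.15, adjusted p 0.0104) and was higher in the cycling class of each library. Cyclin D2 (Ccnd2) moved the other way, with 156, 93.1 and 133 CPM against 224, 173 and 173 CPM (log2 fold change -0.92, SE 0.16, adjusted p 0.00940). Cyclin D1 (Ccnd1) stood at 208, 79.1 and 86.1 CPM against 123, 94.9 and 83.1 CPM and did not pass the test (adjusted p 0.919). The cycling class was the higher one for Ccnd1 in the neonatal and 2 month libraries and the lower one at 3 weeks.

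Of 22 CDK inhibitors and antiproliferative genes tested, 4 rose (Cdkn2a, Rbl1, Cdkn2c and Cdkn2d) and 4 fell (Klf4, Btg2, Foxo3 and Dusp1), around a median of -0.34. Those that rose can also move with the genes of the rule, so their higher calls are a description. Cdkn2c, which encodes the CDK4 and CDK6 inhibitor p18, stood at 112, 159 and 287 CPM against 29.6, 23.9 and 45.9 CPM (log2 fold change 2.13, SE 0.22, adjusted p 7.20e-04). Rbl1, which encodes the pocket protein p107, stood at 40.6, 22.6 and 15.7 CPM against 2.74, 2.55 and 3.30 CPM (log2 fold change 3.30, SE 0.26, adjusted p 1.80e-04). Klf4, a transcription factor of quiescence and differentiation, stood at 244, 571 and 741 CPM against 473, 923 and 1382 CPM (log2 fold change -1.03, SE 0.19, adjusted p 0.0119). Cdkn1a, Cdkn1b and Cdkn1c, which encode p21, p27 and p57, did not pass the test (adjusted p 0.108, 0.0765 and 0.555). Of 12 p53 targets, the desmosomal gene Perp alone was called, higher at 35.4, 133 and 224 CPM against 8.14, 63.8 and 78.9 CPM. Without the barcodes in which another lineage's markers outnumbered the fibroblast ones, Perp stood at 4.96, 17.4 and 3.61 CPM in cycling barcodes and the call was lost.

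Genes of nucleotide and one-carbon synthesis supply DNA precursors. Their higher calls can include genes that move with the rule. Of 20 tested, 5 rose and 0 fell, with a median log2 fold change of 0.60, and with library totals 13 were higher. Shmt1, which feeds one-carbon units to thymidylate synthesis, stood at 18.0, 6.04 and 7.83 CPM against 2.49, 1.01 and 0.676 CPM (log2 fold change 2.52, SE 0.34, adjusted p 0.00339). Psat1, of serine synthesis, stood at 48.5, 48.3 and 62.6 CPM against 9.69, 18.6 and 5.25 CPM (log2 fold change 1.62, SE 0.22, adjusted p 0.00343), higher in the cycling class of each library. Mthfd1, Umps and Nme1 were the others that rose. Of 16 glycolysis genes 3 fell, Slc16a3, Aldoa and Hk2, and 0 rose. The sum of the list went the other way and was higher in the cycling class of each library. It stood at 2955, 2827 and 2813 CPM in cycling and 2287, 2095 and 1735 CPM in non-cycling barcodes. The aldolase gene Aldoa stood at 158, 136 and 123 CPM against 281, 283 and 233 CPM (log2 fold change -1.15, SE 0.16, adjusted p 0.00312).

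The matrix genes that passed the test were all lower in cycling fibroblasts. Lower here and below means a lower share of UMIs, not fewer UMIs per barcode. Cycling barcodes held medians of 15039, 20898 and 21069 UMIs, against 9589.5, 12235 and 10661 in non-cycling barcodes. Levels per barcode were not tested. Of 40 matrix genes outside the gate, 10 fell and 0 rose, with a median of -0.57, and 4 fell without barcodes marked by Scrublet. Elastin (Eln) stood at 447, 852 and 321 CPM in cycling and 1537, 2211 and 884 CPM in non-cycling fibroblasts (log2 fold change -1.79, SE 0.23, adjusted p 0.00264). Ogn, which encodes the small proteoglycan osteoglycin, stood at 49.8, 167 and 80.9 CPM against 127, 352 and 337 CPM (log2 fold change -1.42, SE 0.16, adjusted p 0.00146). In every library the cycling level of Eln and of Ogn was under the non-cycling level of the same library. Fmod, the tendon and fascia proteoglycan fibromodulin, stood at 6.88, 17.5 and 0 CPM against 13.9, 269 and 300.2 CPM (log2 fold change -3.27, SE 0.56, adjusted p 0.00988). It had no UMI in cycling barcodes at 2 months, where the floor of 3 UMIs is 7.83 CPM. Mfap4, an elastic fibre protein, stood at 597, 1992 and 769.8 CPM against 2058, 4029 and 1723 CPM (log2 fold change -1.61, SE 0.29, adjusted p 0.0117), and the matricellular gene Thbs1 at 158, 84.5 and 23.5 CPM against 496, 159.8 and 30.1 CPM (log2 fold change -1.50, SE 0.21, adjusted p 0.00418). Fn1, Lum, Postn and Sparc did not pass the test (adjusted p 0.196, 0.207, 0.293 and 0.420). The gate's own collagens were lower too: Col1a1 stood at 10719, 36662 and 28494 CPM in cycling and 17066, 57300.5 and 57401 CPM in non-cycling barcodes. With the limit on collagen raised to 5%, 7 matrix genes fell and 0 rose.

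Of 25 collagen processing genes 6 fell and 0 rose, with a median of -0.47. Without barcodes marked by Scrublet edgeR called 0 of them, and 10 had an unadjusted p under 0.05. The cross-linking enzyme gene Lox stood at 213, 208 and 80.9 CPM against 542, 286 and 261 CPM (log2 fold change -1.11, SE 0.24, adjusted p 0.0237), and the procollagen protease gene Adamts2 at 242, 424 and 577 CPM against 319, 741 and 1035 CPM (log2 fold change -0.82, SE 0.18, adjusted p 0.0265). Of 21 matrix turnover genes 6 fell and 0 rose, with a median of -0.53, and 2 fell without barcodes marked by Scrublet. Among them the cathepsin gene Ctsl stood at 231, 607 and 678 CPM against 493, 1008 and 1234 CPM (log2 fold change -1.12, SE 0.20, adjusted p 0.0104).

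Immediate early genes respond to growth factors and also to tissue dissociation. Of 19 tested, 6 fell and 0 rose, with a median of -0.76. DESeq2 called 13 of them lower, and 2 fell without barcodes marked by Scrublet. Zfp36, an RNA-binding protein that destabilises cytokine transcripts, stood at 459.6, 984 and 1487 CPM in cycling and 1229, 2013 and 2992 CPM in non-cycling fibroblasts (log2 fold change -1.44, SE 0.23, adjusted p 0.00648). The AP-1 gene Junb stood at 1602, 1358 and 2064 CPM against 3473, 2713 and 3629 CPM (log2 fold change -1.27, SE 0.24, adjusted p 0.0154). The nuclear receptor gene Nr4a1 stood at 461, 314 and 548 CPM against 1034, 483 and 561 CPM (log2 fold change -1.10, SE 0.21, adjusted p 0.0148), and its call was lost without barcodes marked by Scrublet.

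The pathways named in the series title were measured next. IL-1 binds the receptor IL1R1 with its partner IL1RAP and signals through MYD88, while IL1R2 is a decoy and IRAK3 a brake. Of 14 IL-1 family genes and receptors tested, 4 fell (Il1r1, Irak3, Myd88 and Il1rap) and 0 rose, with a median of -0.32. Without barcodes marked by Scrublet edgeR called 0 of 14, and 5 had an unadjusted p under 0.05. Il1r1 stood at 18.3, 27.4 and 28.7 CPM in cycling and 48.9, 43.1 and 45.8 CPM in non-cycling fibroblasts (log2 fold change -1.20, SE 0.21, adjusted p 0.0100), lower in cycling barcodes of each library. At 2 months the Poisson interval of the cycling level of Il1r1 holds the non-cycling level. Il1r2 stood at 1.64, 159.9 and 211 CPM against 7.71, 211 and 616 CPM (adjusted p 0.0867). Of 25 antigen presentation, complement and chemokine genes 9 fell and 0 rose, with a median of -0.56, and 2 fell without barcodes marked by Scrublet. The neutrophil chemokine gene Cxcl1, an IL-1 target, stood at 260.4, 164 and 115 CPM against 1071, 761 and 928 CPM (log2 fold change -2.33, SE 0.19, adjusted p 2.06e-04), and Scrublet filtering kept its call.

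Of 23 WNT targets and modulators 2 rose (Dkk1 and Wif1) and 3 fell (Notum, Rspo1 and Sfrp2), with a median of -0.13. Dkk1, which blocks the WNT co-receptors, stood at 43.2, 7.11 and 0 CPM in cycling and 10.5, 0.830 and 0 CPM in non-cycling fibroblasts (log2 fold change 2.22, SE 0.31, adjusted p 0.00367). The call for Dkk1 was lost at a collagen limit of 5%. The WNT agonist gene Rspo1 stood at 34.7, 30.0 and 62.6 CPM against 46.5, 92.3 and 103 CPM (log2 fold change -1.26, SE 0.26, adjusted p 0.0193), and its call was lost without barcodes marked by Scrublet. Lef1, a nuclear effector of WNT, stood at 39.0, 3.23 and 7.83 CPM against 25.5, 0.862 and 2.72 CPM (adjusted p 0.178). Of 11 hedgehog pathway genes 0 were called by edgeR with TMM, where 5 had an unadjusted p under 0.05, and 0 by DESeq2. With library totals 2 were called higher. Ptch1, the hedgehog receptor and a target of the pathway, stood at 142, 48.9 and 7.83 CPM against 93.7, 17.1 and 10.7 CPM (log2 fold change 0.83, adjusted p 0.0530), and Gli1 at 89.4, 24.4 and 7.83 CPM against 63.9, 11.5 and 5.56 CPM (adjusted p 0.0963). Ptch1 was higher in the cycling class of the neonatal and 3 week libraries and not at 2 months, where it had 3 UMIs in the cycling sum.

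The growth list held imprinted genes and genes of insulin-like growth factors. Of 23 tested 7 fell and 0 rose, with a median of -0.49, and 3 fell without barcodes marked by Scrublet. Dlk1, which holds back adipocyte differentiation, stood at 1214, 30.8 and 0 CPM in cycling and 2762, 68.8 and 2.45 CPM in non-cycling fibroblasts (log2 fold change -1.39, SE 0.21, adjusted p 0.00507). The embryonic growth factor gene Igf2 stood at 163, 8.41 and 0 CPM against 299.6, 20.1 and 1.49 CPM (log2 fold change -1.24, SE 0.16, adjusted p 0.00293). Both calls were lost at a collagen limit of 5%. Igfbp3, which binds insulin-like growth factors, stood at 115, 235 and 23.5 CPM against 212, 556 and 284 CPM (log2 fold change -1.28, SE 0.17, adjusted p 0.00294), lower in the cycling class of each library. Igf1, H19 and Mest did not pass the test (adjusted p 0.833, 0.719 and 0.298). Of 18 mitogen receptors 1 rose (Fgfr3) and 2 fell (Tgfbr3 and Insr), and the call for Fgfr3 was lost without the barcodes rich in other lineages' markers.

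Lists of dermal fibroblast states were counted in the same way. Of 11 reticular genes 4 fell and 0 rose, with a median of -1.04, and of 12 interstitial progenitor genes 4 fell and 0 rose, with a median of -0.66. Without barcodes marked by Scrublet these counts were 3 and 2. Cilp, which encodes a cartilage intermediate layer protein, stood at 4.59, 79.8 and 112 CPM against 27.4, 242 and 179 CPM (log2 fold change -2.08, SE 0.23, adjusted p 0.00113). The hyaluronan synthase gene Has1 stood at 226, 263 and 229.6 CPM against 491, 715 and 447 CPM (log2 fold change -1.49, SE 0.18, adjusted p 0.00172). Pi16, the marker of a universal fibroblast progenitor, stood at 25.2, 225 and 1386 CPM against 53.1, 381 and 1199 CPM (log2 fold change -1.10, SE 0.17, adjusted p 0.00575). For Pi16 the order turned at 2 months, where cycling barcodes were the higher.

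Of 12 papillary genes 1 rose (Col23a1) and 1 fell (Rspo1), with a median of -0.23. Of 16 dermal papilla genes 2 rose (Sox18 and Wif1) and 3 fell (Notum, Fgf7 and Enpp2), with a median of -0.09, and of 12 dermal sheath genes 2 rose (Acan and Tpm2) and 3 fell (Abi3bp, Mylk and Enpp2), with a median of 0.13. Sox18, a transcription factor of the early dermal papilla, stood at 24.6, 15.95 and 0 CPM against 8.92, 2.83 and 0.0966 CPM (log2 fold change 1.75, SE 0.31, adjusted p 0.0103). The smooth muscle actin gene Acta2 stood at 312, 69.4 and 2.61 CPM against 68.5, 74.4 and 18.4 CPM and did not pass (adjusted p 0.269), with its high value in the neonatal library alone. Of 16 preadipocyte genes 0 rose and 1 fell, the adhesion gene Icam1, and it was not called without barcodes marked by Scrublet. Pparg, the main regulator of adipocyte differentiation, stood at 9.83, 9.05 and 0 CPM against 20.8, 4.73 and 1.24 CPM (adjusted p 0.740). The fatty acid carrier gene Fabp4 stood at 257, 30.2 and 0 CPM against 455, 24.9 and 1.33 CPM (adjusted p 0.240). Of 7 tendon or fascia genes 2 fell, Fmod and Coch.

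**Figure D3:**
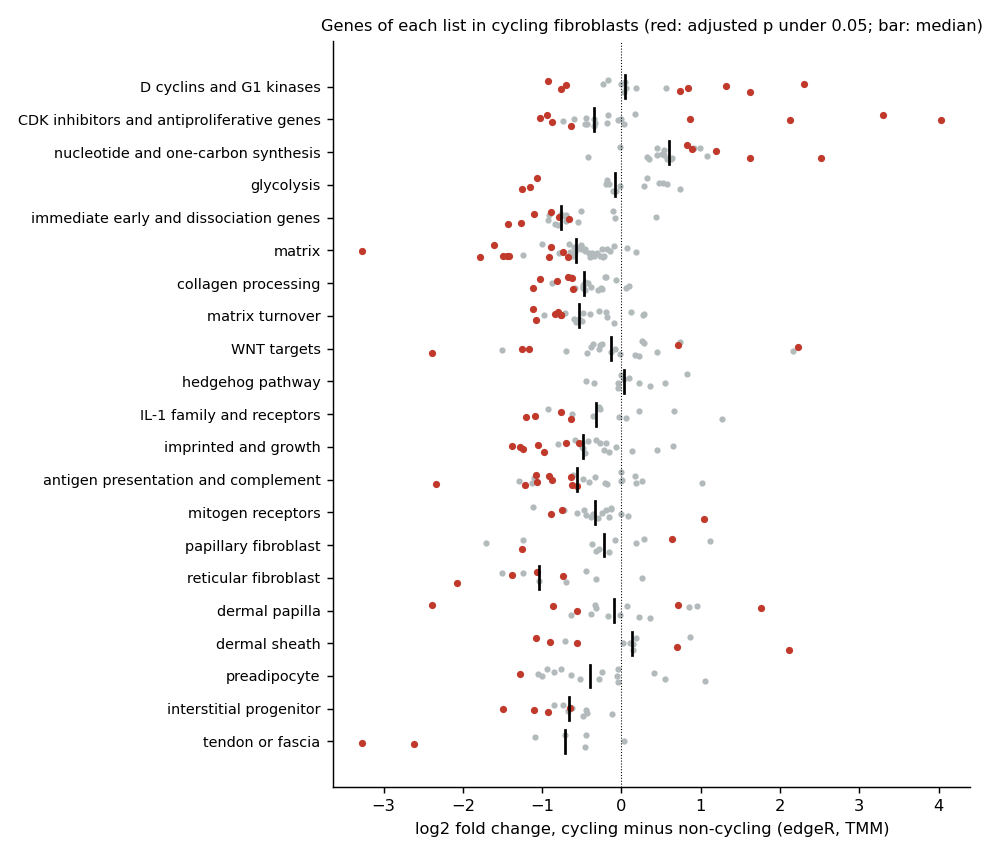
Log2 fold changes (cycling minus non-cycling, edgeR with TMM) of the tested genes of 21 lists, 1 point per gene, red where the adjusted p is under 0.05, with a bar at the median of each list. Points of the matrix, turnover, reticular and interstitial lists lie mostly left of 0 and those of nucleotide synthesis mostly right.

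**Figure D4:**
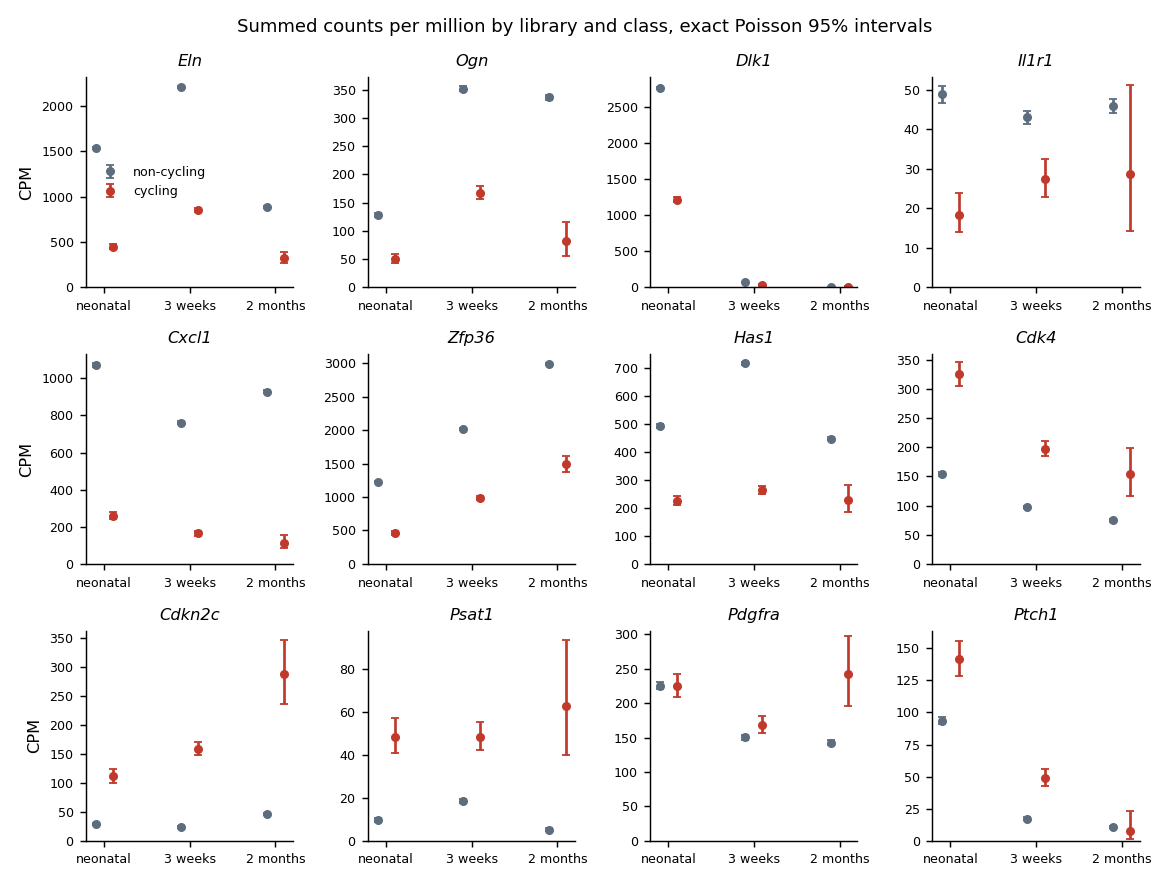
CPM of 12 genes in the summed cycling (red) and non-cycling (grey) barcodes of each library, with exact Poisson 95% intervals. Eln, Ogn, Il1r1, Cxcl1, Zfp36 and Has1 are lower and Cdk4, Cdkn2c and Psat1 higher in cycling barcodes of each library.

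Of 11 keratinocyte genes tested, 4 were higher in cycling barcodes (Krt14, Krt15, Krt17 and Sfn). Leaving out the barcodes in which another lineage's markers outnumbered the fibroblast ones removes keratinocyte UMIs by construction. With them left out of both classes edgeR called 0 of the 11, a count that the choice of barcodes can set. In that fit over all genes 1099 were higher and 745 lower, and 8 matrix genes, 4 IL-1 genes, 4 reticular and 4 interstitial genes were lower.

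Ages were compared within the cycling class by ratios of CPM, without a test. A gene counted as measured when its higher CPM was 10 or more and its higher UMI count 20 or more. These values could come from different sums. Higher calls at 2 months could thus rest on fewer than 20 UMIs there. A 2-fold ratio was called higher or lower. From neonatal to 3 weeks, 9.32% of 8982 measured genes were higher and 9.32% lower in cycling barcodes, against 8.75% and 9.58% of 8254 in non-cycling barcodes. From 3 weeks to 2 months, 8.95% of 8997 were higher and 5.41% lower, against 3.25% and 2.72% of 7867. The 2 month sum holds 17 barcodes, and 3 UMIs there are 7.83 CPM. Lower counts were set to 3 UMIs in the ratios. In cycling barcodes, genes less than 2-fold above that level at 3 weeks thus could not be called lower at 2 months. The non-cycling floor at 2 months is 0.0579 CPM, so the shares of both classes are not measured alike. Sex differs between the libraries and cannot be told apart from age: Xist, expressed from the inactive X of females, stood at 818, 0.216 and 0 CPM and the Y-linked Ddx3y at 17.4, 64.4 and 83.5 CPM in cycling barcodes.

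Genes of the cell cycle lists that were 2-fold apart between ages in cycling barcodes are given beside the shares of all measured genes. Those shares were 9.32% higher and 9.32% lower from neonatal to 3 weeks, and 8.95% and 5.41% from 3 weeks to 2 months. From neonatal to 3 weeks the mitosis, replication and histone counts lay below these shares. Of 59 mitosis genes 3 were higher and 2 lower at 3 weeks than in the neonatal library, and of 40 replication genes 0 were higher and 3 lower. From 3 weeks to 2 months 0 mitosis genes were higher and 2 lower, and 0 replication genes were higher and 6 lower. Without the barcodes of other lineages 4 mitosis genes were higher and 1 lower at 2 months, and 0 replication genes were higher and 5 lower. Of 13 histone genes 0 were higher and 6 lower at 2 months, and of 14 without those barcodes 0 and 5. From neonatal to 3 weeks 0 of 16 histone genes were higher and 1 lower. The helicase subunit gene Mcm6, of the printed promoter, was 1 of the 3 replication genes lower at 3 weeks, at 104, 46.8 and 39.1 CPM. Of 16 D cyclins and G1 kinases 0 were higher and 4 lower at 3 weeks (Skp2, Mycn, Ccnd1 and Cdk6), and Skp2 stood at 65.5, 18.8 and 7.83 CPM over the 3 ages.

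Most WNT, hedgehog and growth genes that were 2-fold apart were higher in neonatal than in 3 week cycling fibroblasts. Of 19 WNT genes measured 3 were higher and 9 lower at 3 weeks, against 4 and 7 of 18 in non-cycling barcodes. Rspo3, a WNT agonist, stood at 199, 7.33 and 36.5 CPM in neonatal, 3 week and 2 month cycling barcodes, and Lef1 at 39.0, 3.23 and 7.83 CPM. Of 11 hedgehog genes 1 was higher and 5 lower in cycling and 0 and 5 in non-cycling barcodes. Gli1 stood at 89.4, 24.4 and 7.83 CPM and Hhip, a hedgehog decoy, at 39.6, 6.47 and 0 CPM in cycling barcodes. Of 22 imprinted and growth genes 5 were higher and 9 lower at 3 weeks, with Dlk1 at 1214, 30.8 and 0 CPM and Igf2 at 163, 8.41 and 0 CPM. Igf2bp1, an RNA-binding protein of embryonic growth, stood at 27.5, 0.862 and 0 CPM. The matrix gene Tnc, which marks developing and wounded tissue, stood at 75.7, 4.31 and 2.61 CPM, and 11 of 40 matrix genes were higher and 7 lower at 3 weeks.

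Most antigen presentation, complement, IL-1 and interstitial genes that were 2-fold apart were higher in 3 week cycling fibroblasts. Of 23 antigen presentation and complement genes 16 were higher and 1 lower than in neonatal cycling barcodes, against 16 and 0 of 22 in non-cycling barcodes. H2-K1, a class I gene, had 59.3, 555 and 1195 CPM over the 3 ages, and the complement gene C3 had 0, 69.6 and 329 CPM. Of 8 IL-1 genes 4 were higher and 0 lower in both classes. The decoy receptor gene Il1r2 stood at 1.64, 159.9 and 211 CPM in cycling and 7.71, 211 and 616 CPM in non-cycling barcodes. Of 12 interstitial genes 7 were higher and 1 lower, and Ly6a, which encodes Sca1, stood at 116, 1672 and 1203 CPM. The stromelysin gene Mmp3 stood at 9.17, 153 and 431 CPM. Of 9 dermal papilla genes 1 was higher and 5 lower, and of 11 dermal sheath genes 1 was higher and 4 lower, with Acta2 at 312, 69.4 and 2.61 CPM.

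From 3 weeks to 2 months, 13 of 24 antigen presentation and complement genes were higher and 2 lower, and 2 of 18 imprinted and growth genes were higher and 12 lower. Without the barcodes of other lineages the counts were 12 and 1 for the first list and 3 and 9 for the second. The interferon-induced gene Isg15 stood at 7.53, 17.03 and 136 CPM and the imprinted zinc finger gene Peg3 at 599, 337 and 36.5 CPM. Of 38 matrix genes 1 was higher and 12 lower, against 0 and 14 of 39 in non-cycling barcodes, and the fibrillin gene Fbn2, of early elastic fibres, stood at 264, 74.6 and 7.83 CPM. Of 17 WNT genes 8 were higher and 2 lower in cycling barcodes, and of 10 papillary genes 7 were higher and 0 lower. In non-cycling barcodes 2 of 15 WNT genes were higher and 0 lower, and 0 of 7 papillary genes were 2-fold apart. Without the barcodes of other lineages, 11 of 17 WNT genes in cycling barcodes were higher and 2 lower, and 6 of 9 papillary genes were higher and 0 lower. The papillary gene Crabp1, a retinoic acid carrier, stood at 23.6, 32.3 and 146 CPM in cycling and 17.9, 143 and 193 CPM in non-cycling barcodes. The WNT target Axin2 stood at 49.1, 26.3 and 80.9 CPM in cycling and 37.4, 29.0 and 31.0 CPM in non-cycling barcodes, and at 68.6 CPM at 2 months without the barcodes of other lineages. Whether the classes differ in their change with age was not tested. The floor of the 2 month cycling sum limits lower calls in that class, and the non-cycling floor does not.

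**Figure D5:**
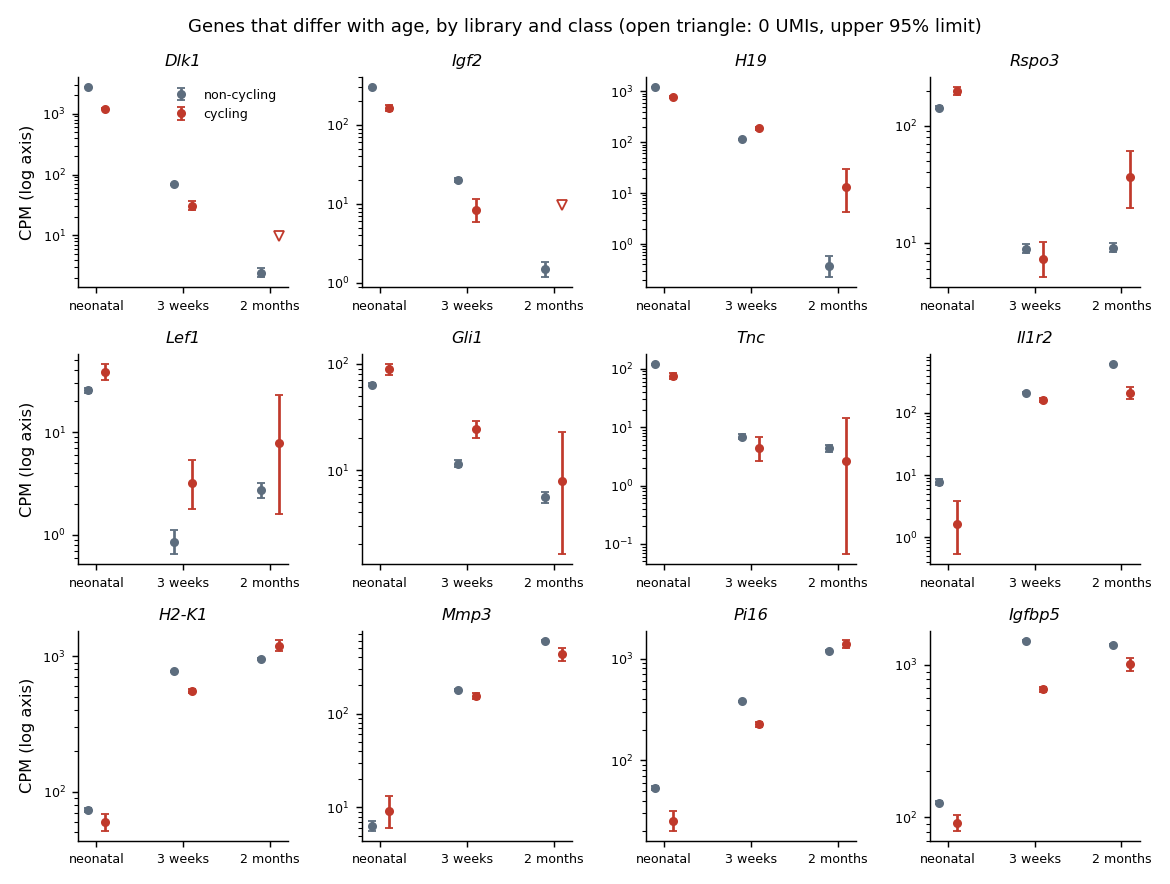
CPM on log axes of 12 genes by library in cycling (red) and non-cycling (grey) sums, with exact Poisson 95% intervals and an open triangle at the upper limit where no UMI was found. Dlk1, Igf2, Lef1, Gli1 and Tnc are highest in the neonatal library in both classes, and H2-K1, Il1r2, Mmp3 and Pi16 lowest there.

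Genes outside the lists gave the extremes of the age ratios, and the values of several change when the barcodes rich in other lineages' markers are left out. The collagen gene Col26a1 stood at 229, 3.66 and 0 CPM and, without those barcodes, at 231, 3.92 and 0 CPM. The major urinary protein gene Mup20 stood at 0, 308 and 2.61 CPM and at 0, 350.2 and 3.61 CPM without them, and the lung and liver cytochrome gene Cyp2f2 stood at 0, 53.2 and 180.0 CPM. The matricellular gene Wisp2 stood at 0.983, 54.5 and 20.9 CPM. By contrast, the cystatin gene Cst6 went from 142 to 5.87 CPM at 3 weeks, and the hemidesmosome collagen gene Col17a1 from 67.9 to 6.85 CPM, when those barcodes were left out. Stfa3, a stefin, stood at 36.7 CPM in neonatal cycling barcodes and at 0.992 CPM without them, while Reg3g and Cntn4 stood without them at 26.8 and 22.8 CPM. The class II genes H2-Eb1, H2-Ab1 and H2-M2 and the Langerhans cell gene Cd207 stood at 224, 227, 57.4 and 52.2 CPM at 2 months and at 0 without them. Rgs1 stood at 133 CPM at 2 months and at 7.22 CPM without them. The lowest ratios from 3 weeks to 2 months were those of Mup20, Rbp4, Cst6, Pcsk5 and Il6. The retinol carrier gene Rbp4 stood at 13.1, 225 and 0 CPM and the cytokine gene Il6 at 39.0, 80.4 and 10.4 CPM over the 3 ages.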

How the data were processed

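Droplet-based single-cell RNA sequencing was read from deposited UMI counts of 27998 genes per barcode, 1 matrix for each of 3 libraries. Per the submitters' processing notes, the build was mm10 and the tools were Cell Ranger 3.0.2 and Seurat 2.0, with no role given for either, and the authors' counts are whole numbers that were not normalized. The matrices hold 8452, 10226 and 10190 barcodes, of which 7911, 8900 and 9332 were kept. Pairs of libraries share 23 to 31 kept barcode sequences, and 0 of them are cycling barcodes. Every deposited column was used.

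Counts were summed by library and class and given as CPM of the sum. The test was edgeR 4.0.16 (R 4.3.3) with filterByExpr, TMM and a library block on 4 summed profiles of 2 libraries, with 1 residual degree of freedom and a mean of 6.45 prior degrees of freedom. Both classes of a library come from the same suspension, so the library pairs them. DESeq2 1.42.0 was an alternative, doublets were scored with Scrublet in scanpy 1.11.5, and the fit was tested on simulated data. Scrublet's own threshold marked 0.0253% of neonatal barcodes, so the 6% with the highest score were taken there. Other alternatives varied the gate, depth, scaling, filter and libraries.

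The members and the 27 gene lists (547 genes) were chosen with earlier results of these data known. Genes are named by a rule: the 10 highest and 10 lowest called genes outside the cell cycle lists, up to 4 genes of each list by size of change, fixed genes, and the 5 highest and 5 lowest age ratios outside the lists. Cdk4, Ogn and genes named only to spell out a count or a marker list were chosen after their values were seen.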

Additional observations from a re-analysis of the deposited data

Results flagged for a closer look

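For 11 genes the cycling level lay above the non-cycling level in one of the neonatal and 3 week libraries and below it in the other, each by at least 0.5 on the log2 scale. With 1 library per age the difference was not tested. The share of all genes tested that meets this is not given here, so the count is a description of the named genes only. Values are the log2 ratio of cycling over non-cycling at 3 weeks minus that in the neonatal library. Among genes of growth control, the difference was 1.44 for Cdkn1c, which encodes p57 (log2 ratio -0.85 neonatal and 0.59 at 3 weeks), and 1.38 for the imprinted RNA H19 (-0.69 and 0.69). Among adipocyte lineage genes it was 2.02 for Pparg (-1.08 and 0.94), 1.82 for the lipid receptor gene Cd36 (-0.76 and 1.06), 1.36 for the lipid droplet gene Plin2 (-0.55 and 0.81) and -1.48 for the transcription factor gene Ebf2 (0.95 and -0.53). Among matrix and WNT genes it was -1.31 for Col5a3, -2.58 for Thbs4, -1.94 for the transglutaminase gene Tgm2 and -1.34 for the WNT ligand gene Wnt5a, each higher in cycling barcodes of the neonatal library and lower at 3 weeks. For the haemoglobin gene Hbb-bs, which dermal cells do not make, it was -1.13 (0.57 and -0.56).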

How the results depend on the processing

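The share of cycling barcodes moved with the definition. In the neonatal library it was 5.11% with 3 of 8 genes, 2.01% and 5.80% with collagen limits of 5% and 1%, and 3.53% without barcodes marked by Scrublet. It was 3.08% there without barcodes holding 3 or more UMIs of other lineages' markers in sum, 7.80% among barcodes of 10000 or more UMIs and 2.31% after thinning. At 3 weeks it was 1.40% without barcodes with other lineages' markers, 5.77% among deep barcodes and 2.22% after thinning, and at 2 months 0.0618%, 0.615% and 0.211%. The count of called genes, 1777 in all, was 982 without barcodes marked by Scrublet, 3040 with no filter on low counts and 112 with no replicate block. In all other alternatives it stayed within 1.5 times, among them DESeq2 (1244), library totals (2028, of which 76.4% higher against 59.2%) and the added 2 month library (2396, with 1434 to 2269 when the neonatal or the 3 week library was then left out). Leaving a library out of the fit of 2 leaves no residual degree of freedom. The alternatives with a 1% collagen limit, without barcodes dominated by other lineages and with the 2 month library were added after seeing the data. Genes 2-fold apart between ages went from 1674 to 3315 (neonatal to 3 weeks) and from 1292 to 6284 (3 weeks to 2 months) with no filter, and to 499 in the latter without barcodes with other lineages' markers. The causes were not tested.

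Of 108 named genes 62 lost their call with no replicate block, 19 without barcodes marked by Scrublet and, of 106 tested at a 5% collagen limit, 19. No called gene other than Notum changed sign: its log2 fold change was 0.17 with the 2 month library in place of the 3 week one. Signs turned for these genes that were not called. Ccnd1 was -0.033 with 5 of 8 genes, -0.098 without barcodes with other lineages' markers, -0.056 with the 2 month library and -0.41 with it in place of the neonatal one. That last setting gave 0.26 for Postn, 0.76 for H19, 0.15 for Pdgfra, -0.53 for Acta2, 0.57 for Pparg and 0.033 for Fabp4. At a 5% collagen limit H19 was 0.069, Igf1 0.14, Mest 0.10, Acta2 -0.046 and Fabp4 0.69. Igf1 was 0.019 without barcodes marked by Scrublet and 0.087 with library totals, and Pdgfra 0.027 with library totals, 0.0093 with the 2 month library and 0.028 with it in place of the 3 week one. Without barcodes with other lineages' markers Acta2 was -0.74 and Fabp4 1.003, and Fabp4 was 0.048 at a 1% collagen limit.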

Other observations

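Neonatal cycling barcodes held transcripts of both sexes as separate barcodes. Of 179, 108 had UMIs of Xist alone, 40 of Y-linked genes alone, 19 of both (10.6%) and 12 of neither, and 146 of 3870 non-cycling barcodes had both (3.77%). At 3 weeks 82.9% and at 2 months 88.2% of cycling barcodes had Y-linked UMIs alone, and 0 had Xist alone. After thinning to 3000 UMIs, 67.0% of neonatal cycling barcodes had Xist alone and 7.26% Y-linked UMIs alone, against 53.7% and 15.9% of non-cycling barcodes. Both Xist and Y-linked UMIs remained in 0.559% of cycling and 0.990% of non-cycling barcodes after thinning.

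Of 4 endothelial genes tested 2, Cdh5 and Egfl7, were higher in cycling barcodes, and 0 were called without barcodes marked by Scrublet or by DESeq2. The imprinted RNA H19 stood at 758, 186 and 13.0 CPM in cycling and 1219.5, 115 and 0.367 CPM in non-cycling barcodes, so that the 17 cycling barcodes at 2 months were above the non-cycling ones. Igfbp2, which binds insulin-like growth factors, was higher at each later age in the cycling sums, at 24.9, 341 and 1983 CPM against 39.1, 328 and 223 CPM in non-cycling barcodes. The 2 month cycling value is a sum over 17 barcodes, and its spread over them is not given here.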
